A study of Mus musculus with 8 samples.

Results

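The genes described here are the 9 that encode the ligand Nodal, its inhibitors Lefty1 and Lefty2, its co-receptor Tdgf1 (Cripto), the receptors Acvr1b and Acvr2b, the signal transducers Smad2 and Smad3, and the DNA-binding partner Foxh1. They were chosen by name, as the rows of the count table whose Ensembl identifier carries one of these mouse symbols, and all 9 were found among the 50686 identifiers of the table. All 9 also passed the filter on low counts, which 20473 genes did in all. RNA came from mouse embryonic stem cells (mESCs), which were either wild type (R9wt) or lacked the DNA damage checkpoint gene Rad9 (R9del, genotype Rad9-/-). Cells of both genotypes were grown for 1 day (D1) or 5 days (D5), either in a satellite payload in orbit (Space) or in a payload of the same kind on Earth (Ground). This made 8 conditions with 1 library each, so no condition had a replicate, and a condition is named below by joining the terms, as in Space_R9wt_D1. The space cultures also met radiation and the vibration of launch and return, so these cannot be told apart from weightlessness. Each duration had its own group of devices, its own temperature control and its own seeding density, so the duration of culture cannot be told apart from these. At D5 the R9wt devices were seeded with fewer cells than the R9del devices. All cells were fixed in RNAlater inside the device and stored cold before extraction. In orbit the D1 devices were fixed earlier than the D5 devices and came back with them. Duration therefore also cannot be told apart from the time in cold storage.

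Nodal is a secreted ligand of the TGF-beta family. Together with a Cripto co-receptor it assembles type II and type I activin receptors, the type I receptor phosphorylates Smad2 and Smad3, and these enter the nucleus with Smad4, where Foxh1 carries them to DNA. Nodal itself, Lefty1 and Lefty2 are among the targets, and the Lefty proteins block the ligand and the co-receptor, which makes a feedback loop. In the embryo the pathway patterns the epiblast, mesendoderm and left-right axis, and mouse embryonic stem cells are known to express its ligand, co-receptor and Lefty genes.

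The 8 libraries held between 58238440 and 96416907 counts, and the Ground_R9wt libraries were the deepest. Where a count is 0, up to 3 counts remain possible, which equals 0.0335 to 0.0503 CPM (counts scaled to a common library total). The lowest count of any of the 9 genes was 493. All CPM values below were scaled with edgeR's TMM factors. Rad9a, the deleted gene, was at 24.9 ± 3.55 CPM in the R9del libraries and 84.7 ± 10.1 CPM in the R9wt libraries (SD, n = 4 each) and was lower in R9del in 4 of 4 pairs matched on the other conditions, with an adjusted p of 0.0269 in edgeR's quasi-likelihood test. Of its exonic bases, 10.9% overlap Ppp1ca. All 10 pluripotency markers examined, Pou5f1 and Nanog among them, were at 1 CPM or more in all 8 libraries, with summed levels from 4643 to 7844 CPM. Esrrb was higher in space without overlap (log2 fold change 1.16, adjusted p = 0.00796 in edgeR's test, background 5.07% of genes). Sox2 (-0.97, adjusted p = 0.0269), Fgf4 (-1.08, 0.0585) and Utf1 (-0.86, 0.0560) were lower without overlap in the same test (background 9.37%). For the other pluripotency markers space and ground overlapped. Of the 7 fibroblast markers, which would report feeder cells, 4 (Col3a1, Dcn, Lum and Postn) were below 1 CPM in all libraries. The other 3 were detected, with Thy1 at 11.8 to 38.7 CPM, Col1a1 at 3.85 to 10.4 and Col1a2 at 0.299 to 8.88, and the list summed to 22.9 to 50.8 CPM. In RNA from whole cultures, fewer cells that express a gene and less RNA of it per cell cannot be told apart.

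On the mm9 genome, Nodal (ENSMUSG00000037171) lies at chr10:60880720-60888086 on the plus strand and has 3 exon blocks. Lefty2 (ENSMUSG00000066652, chr1:182823239-182829234) and Lefty1 (ENSMUSG00000038793, chr1:182865153-182868531) are neighbours on the plus strand with 4 exon blocks each. Of the 50-base words in Lefty1's exons, 19.4% also occur in the exons of Lefty2, and 12.5% of Lefty2's occur in Lefty1. A read of either gene could therefore have been counted on the other, and their separate values carry that uncertainty. Tdgf1 (ENSMUSG00000032494, chr9:110842114-110848662, minus strand) shares 24.2% of its 50-base words with places in the genome that hold no annotated exon. The other 6 genes shared no such word with any other place. Foxh1 (ENSMUSG00000033837) is at chr15:76498714-76500378, Acvr1b (ENSMUSG00000000532) at chr15:101004556-101043032 and Acvr2b (ENSMUSG00000061393) at chr9:119311562-119342619. Smad3 (ENSMUSG00000032402) occupies chr9:63494574-63605801. No exon of the 9 genes overlapped an exon of another gene.

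The feedback loop acts in part through the first intron of Nodal, which holds a Foxh1-dependent enhancer. The letters AATCCACA, a core that Foxh1 binds, were searched on both strands from the start to the end of Nodal and occurred 2 times, both in intron 1 (chr10:60881244-60885729). They lie 1327 and 2121 bases after the start of the gene. Of 22374 protein-coding genes, 26.8% hold at least 1 match in a window of the same 7367 bases from their start, and 4.03% hold 2 or more. The stretches around both matches are shown on the plus strand of mm9 with the searched letters in capitals, because Foxh1 and Nodal are both among the genes described.
Nodal intron 1, chr10:60882017-60882084: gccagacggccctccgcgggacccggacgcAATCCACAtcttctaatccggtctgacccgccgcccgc
Nodal intron 1, chr10:60882811-60882878: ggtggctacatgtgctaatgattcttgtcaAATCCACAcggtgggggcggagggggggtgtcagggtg

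Promoters of 5 of the 9 genes (Nodal, Tdgf1, Acvr1b, Acvr2b and Smad3) were matched in the RefSeq table of GRCm38.p6. In the 250 bases before their starts, none of the 5 held AATCCACA, which 0.718% of the 32851 promoters in the table hold, and none held the Smad palindrome GTCTAGAC (0.167%) or the TATA box letters TATAAA (12.4%). The letters GGGCGG of a GC box occurred in Acvr1b, Acvr2b, Smad3 and Tdgf1 and in 32.7% of all promoters. The letters CCAAT occurred in Nodal alone of the 5, and in 33.8% of all promoters. All motifs were searched on both strands and a match is a description of the letters, not of a binding site. The promoters of Nodal and Tdgf1 are shown because the former is the ligand and the latter is the most abundant of the 9 transcripts. Both are RefSeq sequences that matched mm9 at a single place, and they are written 5′ to 3′ toward the gene, with CCAAT in capitals for Nodal and the complement of GGGCGG in capitals for Tdgf1.
Nodal promoter, chr10:60880470-60880719, plus strand: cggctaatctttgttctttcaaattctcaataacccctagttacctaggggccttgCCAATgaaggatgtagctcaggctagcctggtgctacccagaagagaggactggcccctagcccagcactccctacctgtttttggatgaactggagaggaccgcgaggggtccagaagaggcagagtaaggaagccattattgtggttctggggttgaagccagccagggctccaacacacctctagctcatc
Tdgf1 promoter, chr9:110848663-110848912, minus strand: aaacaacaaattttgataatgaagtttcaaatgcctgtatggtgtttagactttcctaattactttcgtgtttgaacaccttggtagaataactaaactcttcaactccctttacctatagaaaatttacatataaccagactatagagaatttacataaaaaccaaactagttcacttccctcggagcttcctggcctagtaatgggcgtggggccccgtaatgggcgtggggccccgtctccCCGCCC

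Levels of different genes were compared as CPM per kb of exon. Tdgf1 stood highest with a mean of 349 ± 143 CPM per kb (SD over the 8 libraries), followed by Lefty1 at 128 ± 101 and Lefty2 at 48.7 ± 48.2. Foxh1 (45.5 ± 19.6), Acvr1b (20.6 ± 6.94), Nodal (19.5 ± 11.0) and Acvr2b (17.3 ± 5.56) came next. Smad2 was at 7.65 ± 2.15 and Smad3 lowest at 3.17 ± 1.26 CPM per kb. The ranges over the libraries overlapped for every pair of neighbours in this order. Within a library the order was firm for some neighbours, since Tdgf1 exceeded Lefty1, Lefty1 exceeded Lefty2, Foxh1 exceeded Acvr1b, Acvr2b exceeded Smad2 and Smad2 exceeded Smad3 in 8 of 8 libraries. Lefty2 exceeded Foxh1 in 5 of 8, Acvr1b exceeded Nodal in 3 of 8 and Nodal exceeded Acvr2b in 4 of 8. Between its lowest and highest library Lefty2 spanned 71.1-fold and Lefty1 64.6-fold, against 7.73-fold for Nodal, 5.60-fold for Tdgf1 and 2.55-fold to 3.26-fold for the other 5 genes. Secreted inhibitors thus had the widest range and receptors and Smads a narrow one, as the plot of the 9 genes by library shows.

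**Figure D1:**
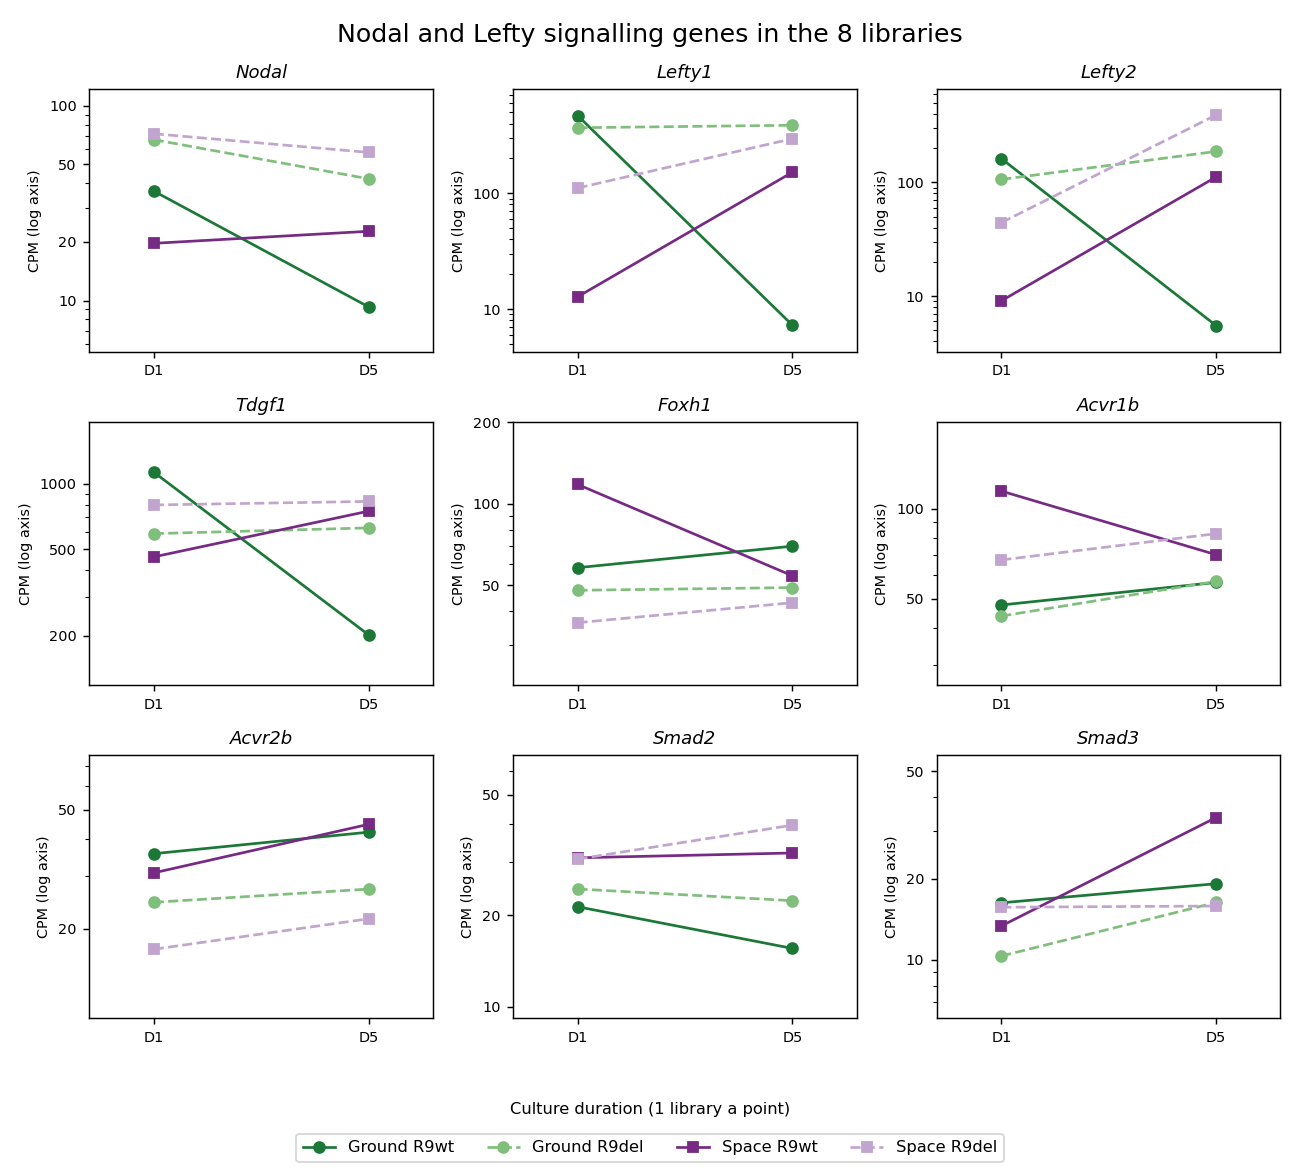
CPM of each gene (log axis) at D1 and D5, with 1 library a point, circles for Ground, squares for Space, solid lines for R9wt and dashed lines for R9del. Lefty1 and Lefty2 are lowest in Ground_R9wt_D5 and Space_R9wt_D1, Nodal in R9del lies above Nodal in R9wt, and Acvr1b and Smad2 in Space lie above Ground.

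Nodal, the ligand, was higher in all R9del libraries than in any R9wt library. On the ground it was at 36.4 CPM in R9wt D1, 9.28 in R9wt D5, 66.9 in R9del D1 and 42.1 in R9del D5. In space it was at 19.7 CPM in R9wt D1, 22.7 in R9wt D5, 71.8 in R9del D1 and 57.6 in R9del D5. The lowest R9del library therefore stood above the highest R9wt library, and the R9del library was the higher in 4 of 4 pairs matched on location and duration. The group means were 59.6 ± 13.0 CPM in R9del and 22.0 ± 11.2 CPM in R9wt (SD, n = 4 each), a log2 fold change of 1.44 with a standard error (SE) of 0.39. This did not pass edgeR's quasi-likelihood test over all genes (adjusted p = 0.0845), in which a gene was called when it changed 2-fold or more with an adjusted p under 0.05. It passed when the matched pairs entered edgeR's test as a block (log2 fold change 1.57, adjusted p = 0.0166), and when Ground_R9wt_D1 was left out (1.79, adjusted p = 0.0477), but not when any of the other 7 libraries was left out. Leaving out 1 library gave log2 fold changes from 1.18 (without Ground_R9wt_D5) to 1.79, and the adjusted p ran from 0.0103 to 0.220 over all alternatives. The exact permutation test over the 8 libraries gave p = 0.0286, the smallest value that 4 against 4 allows, and 0.154 after adjustment over 27 such tests (9 genes in 3 comparisons). It shuffled all 8 libraries freely and ignored the matched pairs. Space and ground overlapped (42.9 ± 25.8 and 38.7 ± 23.6 CPM), and so did D5 and D1 (32.9 ± 21.3 and 48.7 ± 24.9 CPM).

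Of the neural marker list, Tubb3 alone separated the genotypes as Nodal did. The sum of the list lay between 74.0 and 115 CPM in the R9del libraries and between 8.96 and 28.0 CPM in the R9wt libraries. Of its 4 genes 3 were in the table, 1 of them (Neurog2) was below 1 CPM in all libraries, and the sum was mostly Tubb3, a neuronal tubulin at 6.24 to 26.8 CPM in R9wt and 72.1 to 115 CPM in R9del. Pax6 overlapped between the genotypes (1.29 ± 0.88 CPM in R9del and 1.06 ± 1.15 in R9wt) and was highest in Space_R9wt_D1 (2.66 CPM). The part of Tubb3-expressing cells in the Nodal values was not tested.

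Lefty1 and Lefty2, the feedback inhibitors, were far lower in 2 R9wt libraries than in the other 6. Lefty1 was at 469 CPM in Ground_R9wt_D1 but 7.26 in Ground_R9wt_D5, and at 368 and 387 in Ground_R9del D1 and D5. In space it was at 12.8 CPM in R9wt D1, 152 in R9wt D5, 111 in R9del D1 and 296 in R9del D5. The low libraries were thus D5 on the ground and D1 in space, in R9wt, and the lowest count behind these values was 650. Lefty2 had the same low libraries. It was at 162, 5.51, 106 and 187 CPM in Ground_R9wt D1 and D5 and Ground_R9del D1 and D5, and at 9.09, 112, 44.3 and 392 CPM in the matching space libraries. For both genes the groups overlapped in each of the 3 group comparisons. Of the 8 libraries, these low ones had the highest (Ground_R9wt_D5, 7844 CPM) and the lowest (Space_R9wt_D1, 4643 CPM) sum of pluripotency markers, but the first rested on Dppa5a (4602 CPM there). The other 9 markers summed to 3242 CPM in Ground_R9wt_D5 and 2599 CPM in Space_R9wt_D1, against 3112 in Space_R9wt_D5 and 3789 to 4756 in the other 5 libraries. Among the 4 ground libraries, Ground_R9wt_D5 had the lowest level of 6 of the 10 markers (Pou5f1, Nanog, Sox2, Zfp42, Utf1 and Fgf4) and the highest of Dppa5a and Tfcp2l1 (764 CPM, also the highest of all 8), with Klf4 (189 CPM) and Esrrb (47.7 CPM) just below Ground_R9wt_D1. The sum of the 4 formative and primed epiblast markers was lowest in the same 2 libraries as the Lefty genes (82.0 CPM in Ground_R9wt_D5 and 91.5 in Space_R9wt_D1, against 112 to 212 elsewhere). Dnmt3b was the most abundant of them and had its lowest level in Space_R9wt_D5 (48.0 CPM), and the other 3 (Fgf5, Pou3f1 and Otx2) summed to 19.2 CPM in Ground_R9wt_D5 and 32.1 in Space_R9wt_D1, against 26.7 to 72.3 elsewhere. The summed primitive endoderm markers, all 6 of them in the table, were highest in Space_R9del_D5 (220.03 CPM), where Lefty2 was highest, and in Space_R9wt_D5 (147 CPM), against 16.9 to 66.9 CPM elsewhere. Dab2 alone gave 138 CPM of the highest sum, and the other 5 genes gave 81.6 CPM there, 59.4 in Space_R9wt_D5 and 10.3 to 34.5 elsewhere. Sox17, one of these 5, had the opposite pattern, at 0.0597 to 0.770 CPM in space and 2.42 to 6.11 CPM on the ground (log2 fold change -3.92, adjusted p = 0.0181 in edgeR's test). The part of such cells in the Lefty values was not tested.

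The group means of the Lefty genes averaged over differences of opposite sign. Over all libraries Lefty1 was at 143 ± 118 CPM in space and 308 ± 205 CPM on the ground (log2 fold change -1.11, SE 1.02, adjusted p = 0.643 in edgeR's test), and Lefty2 at 139 ± 174 and 115 ± 80.6 CPM (0.27, adjusted p = 0.933, and -0.063 with matched pairs blocked). At D1, Lefty1 was 36.8-fold lower in space than on the ground in R9wt and 3.32-fold lower in R9del. Lefty2 was 17.8-fold lower and 2.40-fold lower in the same 2 pairs. At D5, Lefty1 was 20.9-fold higher in space in R9wt and 1.31-fold lower in R9del, while Lefty2 was 20.3-fold higher and 2.09-fold higher. These are ratios of 1 library to 1 library and have no replicate check. The study also measured Lefty1 by qRT-PCR in all of its samples, which is not a replicate culture, and those values were not used here.

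Whether the difference between space and ground itself differed between D1 and D5 was tested with an interaction term in edgeR, with genotype as a covariate. The interaction was 5.30 on the log2 scale for Lefty2 (SE 1.56, unadjusted p = 0.00922), 5.17 for Lefty1 (SE 1.88, unadjusted p = 0.0249) and 1.27 for Nodal (SE 0.50, unadjusted p = 0.0353), all with an adjusted p of 0.719 in edgeR's test. These 3 of the 9 genes were below an unadjusted p of 0.05, as were 6.65% of the 20473 genes tested. After adjustment edgeR passed 0 genes of the whole table, and DESeq2's Wald test passed 83 but none of the 9. Tdgf1 followed with 1.60 (SE 0.75) at an unadjusted p of 0.0647 (adjusted p = 0.719, edgeR). Without genotype in the fit, the Lefty2 interaction was 3.71 (unadjusted p = 0.0908, adjusted p = 1.00). The interactions of location with genotype and of genotype with duration had none of the 9 genes below an unadjusted p of 0.05 in edgeR's test (backgrounds 2.97% and 4.40%) and 0 genes of the table after adjustment, where DESeq2's test passed 23 and 156 genes.

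Per kb of exon, the summed Lefty level was 18.9 times that of Nodal in Ground_R9wt_D1 and 1.41 times in Ground_R9wt_D5. In Ground_R9del the ratio was 7.83 at D1 and 14.5 at D5. In space it was 1.14 in R9wt D1, 11.9 in R9wt D5, 2.34 in R9del D1 and 11.6 in R9del D5. On the ground the ratio was thus higher at D1 in R9wt and higher at D5 in R9del, while in space D5 was the higher in both genotypes. The sum itself ran from 6.24 to 329 CPM per kb and Nodal from 4.43 to 34.2. The exons of the 2 Lefty genes differ in length, so the sum and its ratio to Nodal also carry the uncertainty of reads split between them. The balance of the 2 inhibitors also varied, with a Lefty2 to Lefty1 ratio per kb from 0.195 in Ground_R9del_D1 to 0.891 in Space_R9del_D5.

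**Figure D2:**
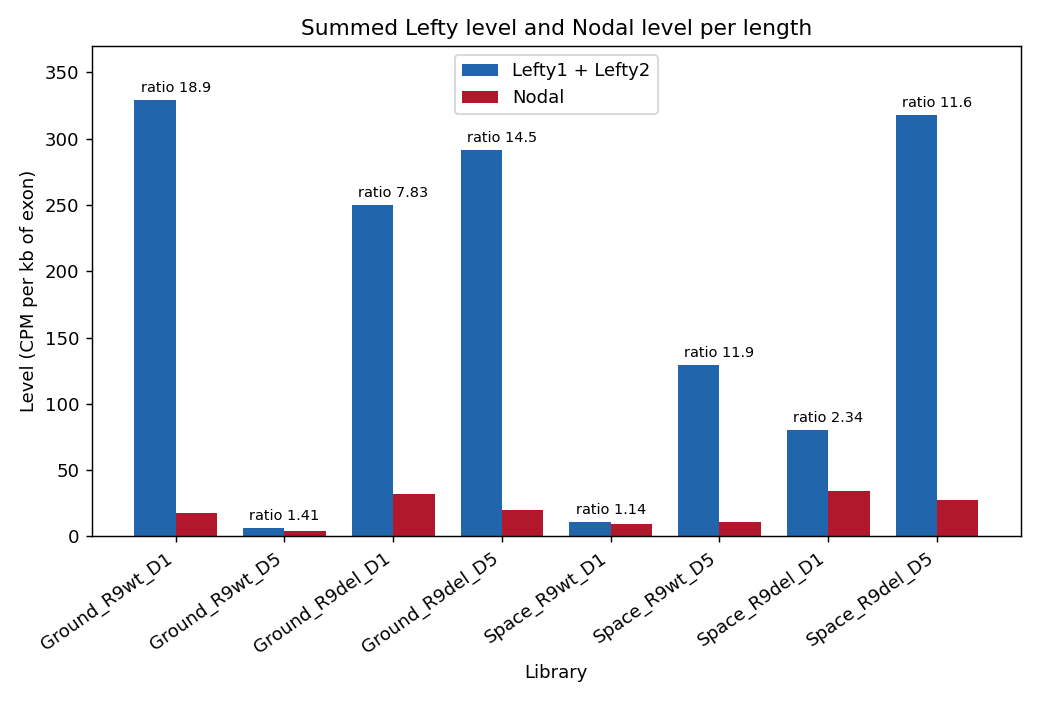
Level per kb of exon (CPM per kb, linear axis from 0) of Lefty1 and Lefty2 summed and of Nodal, in each of the 8 libraries, with the ratio of both written above each pair of bars. The ratio is 1.41 in Ground_R9wt_D5 and 1.14 in Space_R9wt_D1 and between 2.34 and 18.9 in the other 6 libraries.

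Tdgf1, the GPI-anchored co-receptor that Nodal needs, was the most abundant of the 9 transcripts in every library. On the ground it was at 1129 CPM in R9wt D1, 202 in R9wt D5, 589 in R9del D1 and 626 in R9del D5. In space it was at 461 CPM in R9wt D1, 747 in R9wt D5, 798 in R9del D1 and 829 in R9del D5. The highest and the lowest library were both Ground_R9wt, and the groups overlapped in all 3 comparisons. For D5 against D1, Space_R9wt_D1 (461 CPM) lay below 3 of the D5 libraries while Ground_R9wt_D5 (202 CPM) lay below every D1 library. The log2 fold changes were 0.15 for space against ground, 0.16 for R9del against R9wt and -0.31 for D5 against D1, with adjusted p of 0.901, 0.872 and 1.00 in edgeR's test.

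Acvr1b (ALK4), the type I receptor, was higher in every space library than in any ground library. It was at 47.6, 56.7, 43.8 and 57.2 CPM in Ground_R9wt D1 and D5 and Ground_R9del D1 and D5, and at 114, 70.2, 67.4 and 82.5 CPM in the space libraries in the same order. The means were 83.6 ± 21.6 CPM in space and 51.3 ± 6.67 CPM on the ground, a log2 fold change of 0.70 with an SE of 0.22 (adjusted p = 0.106, edgeR). Space was the higher in 4 of 4 matched pairs, by 1.24-fold to 2.40-fold. The exact permutation p was 0.0286, the smallest possible, and 0.154 over the 27 tests. Over the alternatives the adjusted p in edgeR's and DESeq2's tests ran from 0.0273 to 0.250, always at less than a 2-fold change, and without Space_R9wt_D1 the log2 fold change was 0.52. The pluripotency markers Esrrb (higher in space) and Sox2, Fgf4 and Utf1 (lower in space) also separated the locations. Their relation to the genes described here that did so was not tested.

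Acvr2b, a type II receptor, had its lower levels in R9del, the genotype in which Nodal had its higher ones. It was at 35.6 and 42.0 CPM in Ground_R9wt D1 and D5 and at 24.5 and 27.1 CPM in Ground_R9del D1 and D5. In space it was at 30.7 and 44.6 CPM in R9wt and at 17.1 and 21.6 CPM in R9del. All R9del libraries lay below all R9wt libraries, with means of 22.6 ± 4.30 and 38.2 ± 6.29 CPM and a log2 fold change of -0.76 (SE 0.25, adjusted p = 0.132 in edgeR's test, 0.0368 to 0.313 over the alternatives). The exact permutation p was 0.0286 and 0.154 over the 27 tests. The D5 library was the higher of its pair in 4 of 4 pairs, though D5 and D1 overlapped (33.8 ± 11.2 and 27.0 ± 8.01 CPM). Space and ground overlapped as well, at 28.5 ± 12.2 and 32.3 ± 8.02 CPM.

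Smad2 (ENSMUSG00000024563, chr18:76401234-76465385), which carries the signal from the receptor to the nucleus, separated space from ground as Acvr1b did, but was highest in a different library. Its ground levels were 21.4, 15.6, 24.4 and 22.4 CPM in R9wt D1, R9wt D5, R9del D1 and R9del D5, and its space levels 31.0, 32.1, 30.7 and 39.7 CPM. All space libraries stood above all ground libraries, with 33.4 ± 4.26 against 20.9 ± 3.80 CPM. The log2 fold change was 0.67 (SE 0.23, adjusted p = 0.127 in edgeR's test, 0.0202 to 0.283 over the alternatives), with space higher in 4 of 4 pairs by 1.26-fold to 2.06-fold. The exact permutation p was 0.0286, and 0.154 over the 27 tests.

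Smad3, the related transducer that binds DNA directly, had a single high library. It was at 16.3, 19.1, 10.3 and 16.3 CPM in Ground_R9wt D1 and D5 and Ground_R9del D1 and D5. In space it was at 13.3 CPM in R9wt D1, 33.7 in R9wt D5, 15.7 in R9del D1 and 15.8 in R9del D5. D5 was the higher in 4 of 4 pairs, but the groups overlapped (21.2 ± 8.41 against 13.9 ± 2.69 CPM). The log2 fold change was 0.61 (adjusted p = 1.00 in edgeR's test, exact permutation p = 0.0571, 0.257 over the 27 tests), and 0.28 without Space_R9wt_D5. In that library the summed trophoblast markers (242 CPM, against 6.28 to 79.5 in the others) and mesendoderm markers (34.9 CPM, against 6.50 to 20.6) were also highest. The first sum was mostly Hand1 (113 CPM), Gata3 (86.3) and Plac1 (41.7), while Cdx2 was at 0.377 CPM there and at most 2.93 elsewhere. The second was mostly Eomes (31.1 CPM), and the other 5 mesendoderm genes summed to 3.78 CPM there against 1.28 to 10.4 in the others, with T, Gsc and Foxa2 all highest in Ground_R9wt_D5. Elf5 of the first list (5 genes) and Mesp1 of the second (6 genes) were below 1 CPM in every library, and the part of such cells in the Smad3 value was not tested. Per kb, Smad2 was 1.27 to 3.92 times as abundant as Smad3.

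Foxh1, the forkhead factor that tethers the Smads to DNA, was lower in all R9del libraries than in any R9wt library. R9wt had 58.0 CPM in Ground D1, 69.6 in Ground D5, 118 in Space D1 and 54.2 in Space D5. R9del had 47.8, 49.0, 36.3 and 43.1 CPM in the same order. The means were 44.0 ± 5.76 CPM in R9del and 74.9 ± 29.4 CPM in R9wt, a log2 fold change of -0.77 (SE 0.28, adjusted p = 0.172 in edgeR's test, 0.130 to 0.361 over the alternatives). It was -0.45 without Space_R9wt_D1, the library with the highest value. The exact permutation p was 0.0286, and 0.154 over the 27 tests.

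Counted over the 9 genes, R9del against R9wt had 1 gene (Nodal) whose groups did not overlap and that was higher, against a background of 7.10% of all genes tested, and 2 genes (Acvr2b and Foxh1) that were lower without overlap, against 7.19%. None of the 9 passed edgeR's quasi-likelihood test at the adjusted threshold, where 1.81% of all genes did. At an unadjusted p under 0.05, 1 was higher and 2 were lower (background 20.3% in either direction), and DESeq2's Wald test and edgeR's exact test each called 1 of the 9, Nodal, against backgrounds of 8.68% and 6.84%. Space against ground had 2 genes (Acvr1b and Smad2) that were higher without overlap (background 5.07%) and none that was lower (9.37%). Of the 9, 0 passed edgeR's test at the adjusted threshold (background 5.55%) and 2 were higher at an unadjusted p under 0.05 (18.8% in either direction), and DESeq2's and edgeR's exact tests also called 0 of the 9 (backgrounds 8.32% and 7.23%). D5 against D1 had no gene of the 9 without overlap (backgrounds 1.68% higher and 1.17% lower). Here 0 of the 9 passed at the adjusted threshold (background 0%) or at an unadjusted p under 0.05 (4.37%), and DESeq2 and the exact test called 0 as well (0.440% and 0.176%). The median log2 fold change of the 9 was 0.16 for space against ground, 0.16 for R9del against R9wt and -0.036 for D5 against D1, beside 0.014, -0.063 and -0.013 over all genes tested. A shift below 2-fold, like those of Acvr1b, Acvr2b, Smad2 and Foxh1, could not be called at any p.

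Libraries that differ in 1 variable can be set side by side in 12 pairs, which share libraries with each other and have no replicate check. Of the 108 differences of the 9 genes, 35 were 2-fold or more. The background below is the share of 17597 genes past 2-fold in either direction in the same pair. In R9wt at D1, space against ground had 5 of the 9 past 2-fold (background 34.3%), with Acvr1b and Foxh1 higher and Lefty1, Lefty2 and Tdgf1 lower. In R9wt at D5 it also had 5 (36.5%), all higher, namely Nodal (2.44-fold), Tdgf1 (3.71-fold), Smad2 and both Lefty genes. R9del had both Lefty genes lower at D1 (2 of the 9, background 21.5%) and Lefty2 higher at D5 (1 of the 9, background 23.5%).

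In the pairs of R9del against R9wt, none of the 9 reached 2-fold on the ground at D1 (background 23.0%). On the ground at D5, Lefty1 was 53.2-fold, Lefty2 34.0-fold, Nodal 4.54-fold and Tdgf1 3.11-fold higher in R9del (4 of the 9, background 31.9%). In space at D1, Lefty1 (8.70-fold), Lefty2 (4.88-fold) and Nodal (3.65-fold) were higher and Foxh1 was 3.24-fold lower (4 of the 9, background 34.7%). In space at D5, Lefty2 (3.51-fold) and Nodal (2.54-fold) were higher and Acvr2b (2.07-fold) and Smad3 (2.13-fold) were lower (4 of the 9, background 25.6%). Nodal was the higher in R9del in every pair, from 1.84-fold upward.

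In the pairs of D5 against D1, Ground_R9wt had Lefty1 64.6-fold, Lefty2 29.4-fold, Tdgf1 5.60-fold and Nodal 3.93-fold lower at D5 (4 of the 9, background 29.5%). Ground_R9del had none of the 9 past 2-fold (13.3%). In Space_R9wt, Lefty1 (11.9-fold), Lefty2 (12.3-fold) and Smad3 (2.52-fold) were higher at D5 and Foxh1 was 2.18-fold lower (4 of the 9, background 27.9%). In Space_R9del, Lefty1 (2.67-fold) and Lefty2 (8.83-fold) were higher (2 of the 9, background 14.8%). Lefty2 was past 2-fold in 10 of the 12 pairs and Lefty1 in 8, and Ground_R9wt_D5 was in both of the widest differences of the 108, at 64.6-fold and 53.2-fold for Lefty1.

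**Figure D3:**
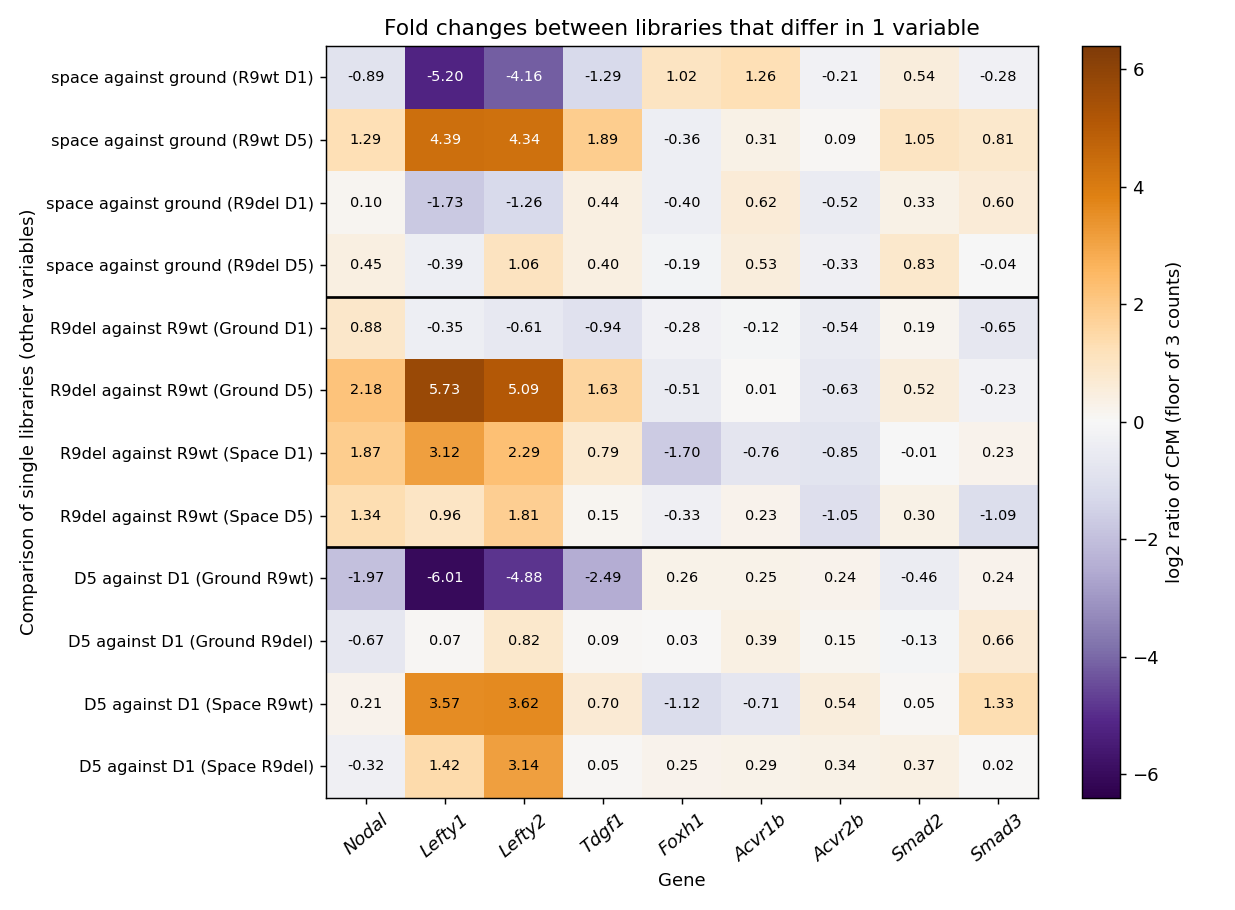
Log2 ratio of CPM between 2 libraries that differ in 1 variable, for each of the 9 genes (columns) in the 12 pairs (rows, with the fixed variables in brackets); brown is higher and purple lower in the library named first. Lefty1 and Lefty2 hold the widest differences, down to -6.01 for Lefty1 at D5 against D1 in Ground_R9wt, and Nodal is positive in all 4 rows of R9del against R9wt.

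With all 8 combinations of the 3 variables measured once, the variation of each gene, as squared deviations of log2 CPM, divides into the variables and their interactions, without a residual and without a test. Genotype took the largest share for Nodal (67.6%), Acvr2b (73.4%) and Foxh1 (52.7%). Location took the largest share for Smad2 (73.8%) and Acvr1b (66.3%). Duration did so for Smad3 alone, with 37.9%. For Lefty1 and Lefty2 the interaction of location and duration was largest, with 39.4% and 44.5%, followed by genotype with 29.5% and 27.9%. For Tdgf1 the interaction of all 3 variables (32.8%) and that of location and duration (31.5%) were largest and nearly equal. The largest share thus fell to genotype for Nodal, Acvr2b and Foxh1, to location for Acvr1b and Smad2, and to an interaction for both Lefty genes. Some term must lead for every gene in such a division. How often each term leads over all genes was not computed.

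**Figure D4:**
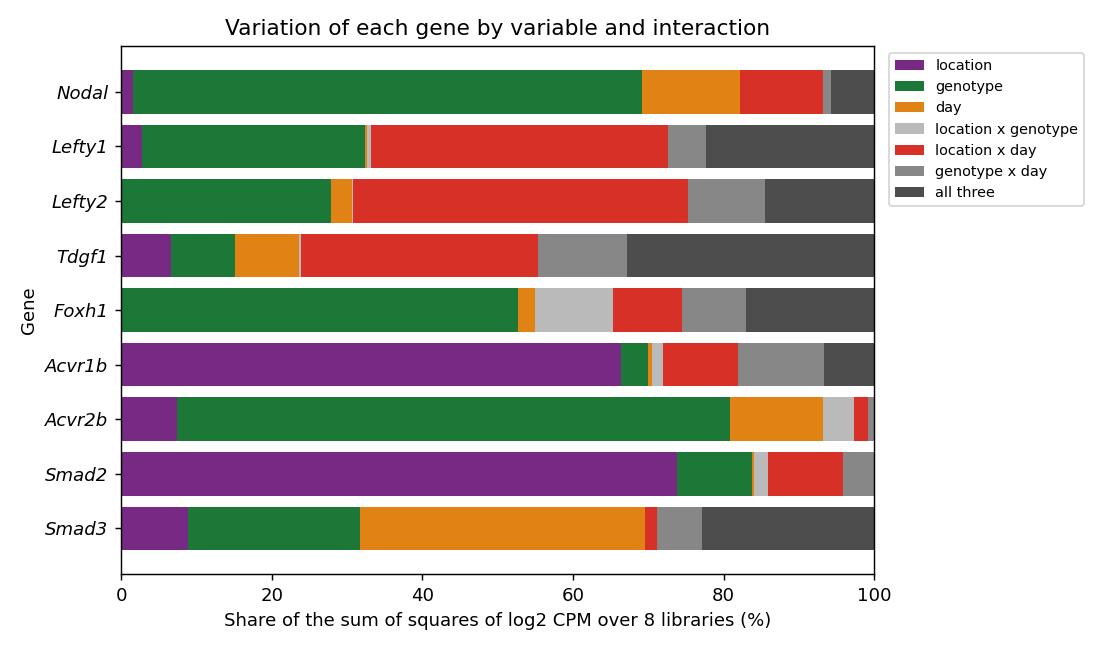
Share of the squared deviations of log2 CPM over the 8 libraries (percent) that falls to each of the 3 variables and to their interactions, for each of the 9 genes. Genotype (green) leads for Nodal, Acvr2b and Foxh1, location (purple) for Acvr1b and Smad2, and the interaction of location and duration (red) for Lefty1 and Lefty2.

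The other genes of the pathway were taken from a list of 28 written from general knowledge, of which 27 were in the table and 24 passed the filter. In space against ground 2 of the 24 passed edgeR's test, both lower, beside the background of 5.55%. At 2-fold or more with an unadjusted p under 0.05 the same 2 were lower (background 8.38%) and none was higher (2.58%). Acvr2a, the other type II activin receptor, was at 12.1, 11.0, 16.6 and 16.3 CPM in Ground_R9wt D1 and D5 and Ground_R9del D1 and D5, and at 5.84, 3.73, 5.06 and 4.58 CPM in space. Its groups did not overlap (log2 fold change -1.54, SE 0.29, adjusted p = 0.0103 in edgeR's test), and 7.84% of its exonic bases overlap Orc4. Per kb, Acvr2b was 4.79 to 12.4 times as abundant as Acvr2a on the ground and 10.9 to 38.8 times in space. Dact2, an antagonist that promotes the breakdown of Nodal receptors, was at 56.0, 33.9, 29.5 and 38.3 CPM on the ground and 9.32, 18.2, 12.5 and 18.2 CPM in space in the same order. All its space libraries lay below all ground libraries (-1.44, SE 0.31, adjusted p = 0.0206 in edgeR's test). Without Ground_R9wt_D1, Space_R9del_D1 or Ground_R9del_D5 the adjusted p of Dact2 rose to 0.0715, 0.0660 and 0.0589. The median log2 fold change of the list was -0.078.

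In R9del against R9wt none of the 24 passed edgeR's test at the adjusted threshold (background 1.81%), while at 2-fold or more with an unadjusted p under 0.05, 1 was higher (6.19%) and 2 were lower (7.62%). Inhbb, which encodes the subunit of activin B, was at 30.2, 3.92, 69.8 and 74.1 CPM on the ground and 5.69, 6.09, 34.5 and 39.6 CPM in space, in the order R9wt D1, R9wt D5, R9del D1 and R9del D5. Its genotypes did not overlap (log2 fold change 2.25, SE 0.65, adjusted p = 0.102 in edgeR's test, 0.0183 with matched pairs blocked, 0.00499 to 0.236 over the alternatives). Leaving out 1 library gave 1.96 to 3.38, the latter without Ground_R9wt_D1. Fstl3, a secreted activin antagonist, was at 10.3 ± 4.47 CPM in R9del and 30.5 ± 13.4 CPM in R9wt, and the genotypes overlapped. Its log2 fold change was -1.56 (adjusted p = 0.0799 in edgeR's test, 0.0447 with matched pairs blocked, 0.00711 to 0.221 over the alternatives). Of its exonic bases, 47.3% overlap Prss57. DESeq2's test and edgeR's exact test each called 2 of the 24, Inhbb and Fstl3, where they called 8.68% and 6.84% of all genes. Without overlap, 4 of the list were higher in R9del (Inhbb and the intracellular inhibitors Pmepa1, Ski and Smurf1, background 7.10%) and 1 was lower (the repressor Tgif2, 7.19%).

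In D5 against D1 the list had 0 genes past edgeR's adjusted threshold, as the whole table did, and 0 in DESeq2's and the exact test. At 2-fold or more with an unadjusted p under 0.05, 2 were higher (background 2.43%) and none was lower (1.06%). These were Cfc1, the Cryptic co-receptor, at 1.84 ± 1.28 against 0.438 ± 0.187 CPM, and Tgfbr2, a type II receptor for TGF-beta, at 5.02 ± 2.15 against 1.95 ± 0.566 CPM. Of the exonic bases of Cfc1, 27.6% overlap Prss40. Without overlap, none of the 24 was higher at D5 (background 1.68%) and 1 was lower (1.17%), the type I receptor Tgfbr1 at 17.2 ± 1.67 against 23.0 ± 4.25 CPM. Among other secreted inhibitors of Nodal, Cer1 had a count of 0 in all 8 libraries, which allows up to 0.0503 CPM.

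**Figure D5:**
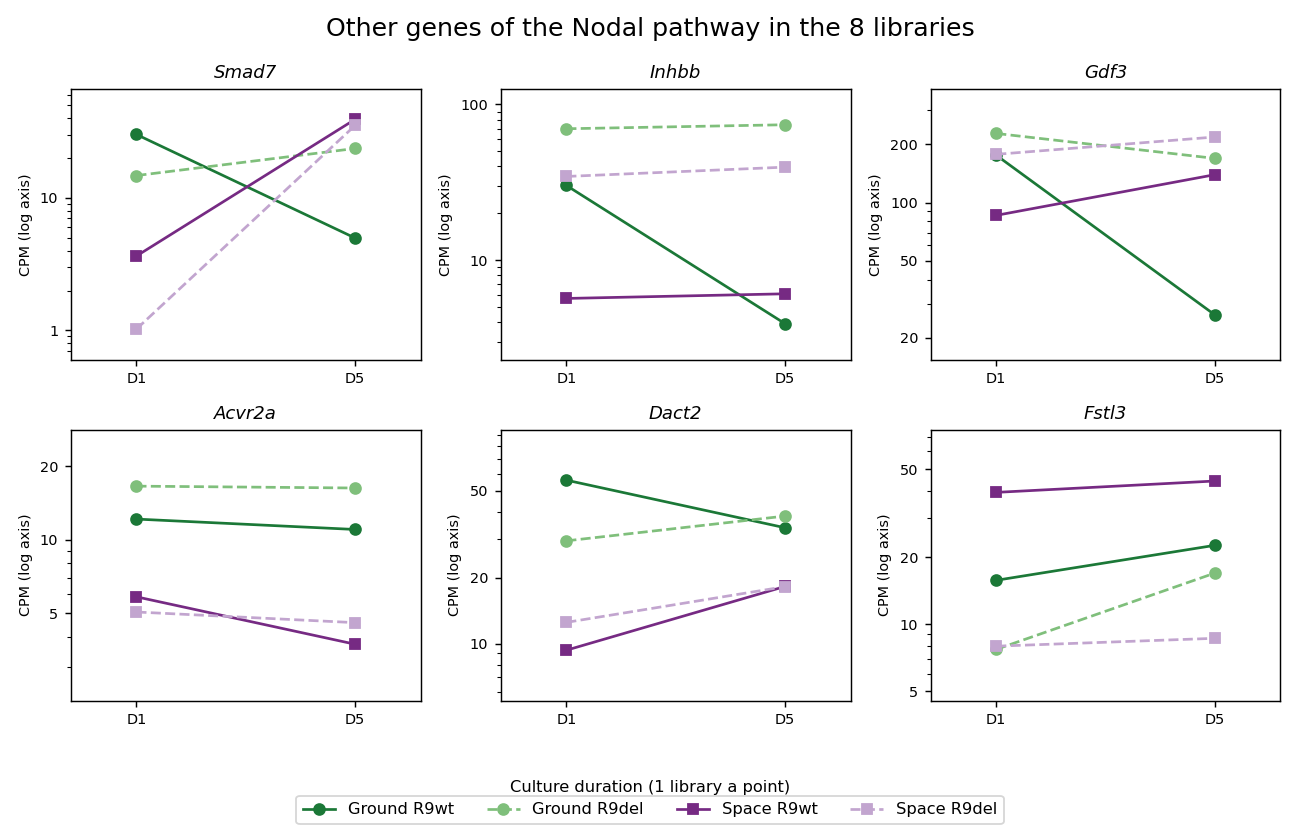
CPM (log axis) of 6 other genes of the pathway at D1 and D5, with 1 library a point, circles for Ground, squares for Space, solid lines for R9wt and dashed lines for R9del. Acvr2a and Dact2 lie lower in Space, Inhbb lies higher in R9del, Fstl3 lies lower in R9del in each of the 4 matched pairs, and Smad7 and Gdf3 cross over between locations in both genotypes.

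The genes most like Nodal, Lefty1 and Lefty2 over the 8 libraries were sought among 6661 named genes whose log2 CPM averaged 1 or more with a standard deviation of 0.5 or more. The 8 libraries share the same conditions, and the correlations are descriptions. For Nodal the closest were Mettl16 (Pearson's r = 0.993), Vegfc (0.993) and Azin1 (0.986). Vegfc, a lymphangiogenic growth factor, was at 13.7, 1.45, 42.7 and 23.4 CPM on the ground and at 6.51, 5.26, 47.0 and 31.6 CPM in space, in the order R9wt D1, R9wt D5, R9del D1 and R9del D5. For Lefty1 they were Ankrd49 (0.983), Ptrh2 (0.971) and Tbc1d25 (0.969), and for Lefty2 they were Men1 (0.983), Ptrh2 (0.954) and Map2k6 (0.953). Ptrh2, a mitochondrial peptidyl-tRNA hydrolase, was near both Lefty genes, and it was lowest in Ground_R9wt_D5 (9.72 CPM) and Space_R9wt_D1 (9.48 CPM) and at 19.3 to 29.0 CPM in the other 6 libraries.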

How the data were processed

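Total RNA was sequenced as 8 mRNA libraries with paired-end reads. Per the submitters' processing notes, the authors used FastQC, TopHat2 2.0.9, the mm9 genome and edgeR, and they deposited whole-number counts per Ensembl gene without normalization. The counting program, the annotation and the use of strand are not given in the sources used here. Of 50686 identifiers 32722 were named, and the table has 35478 with a count above 0.

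Counts were tested as 4 libraries against 4 without covariates, the study's design, with edgeR 4.0.16 (TMM scaling, filterByExpr at a minimum count of 10, quasi-likelihood test, Benjamini-Hochberg adjustment over 20473 genes) in R 4.3.3. A gene was called when it changed 2-fold or more with an adjusted p under 0.05, where the study used an unadjusted p. Because each library is the only one of its condition, p-values measure the spread between libraries of different conditions, and nothing states that they came from separate cultures of one condition. Two-sided exact permutation tests used scipy 1.17.1 and shuffled all 8 libraries freely, without the matched pairs described below. Shuffling within the matched pairs alone was not done. It allows fewer arrangements, so its smallest possible p is larger. The tests were tried on simulated data, but no result of that is given here. Log2 CPM used a prior count of 2, and ratios of single libraries used a floor of 3 counts. Exon lengths, positions and shared 50-base words came from the GENCODE annotation and sequence of mm9. Intervals and floors cover counting error only.

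Libraries that share the other 2 conditions deviated together across genes (correlation 0.274 to 0.676 for space and ground, 0.492 to 0.646 for genotype, 0.448 to 0.724 for duration, against means of -0.130, -0.181 and -0.186 for other pairings). This pairing comes from the conditions in the labels, so each comparison was also fitted with matched pairs blocked. Other alternatives were DESeq2 1.42.0 size factors or library size alone, no filter, the exact test of edgeR, the Wald test of DESeq2, additive covariates and each library left out.

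The 9 genes are all named. Of the pathway list, genes past a fold change of 2 at an unadjusted p under 0.05 are named with their values, except 1 that is not reported here, and the 3 closest genes of Nodal, Lefty1 and Lefty2 by correlation are named. Smad7 and Gdf3, and the genes named for not overlapping or for a count of 0, were added after their values were seen. Members, lists and marker lists were chosen with earlier results of these data known.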

Additional observations from a re-analysis of the deposited data

Results flagged for a closer look

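Over 54 groups of 4 libraries (9 genes in 6 groups), 3 values stood apart from the rest of their group by Dixon's criterion, which chance meets in about 1 in 20 groups. The libraries of a group are different conditions and not replicates. Smad2 in Space_R9del_D5 (39.7 CPM) was above the other space libraries (30.7 to 32.1 CPM), which lay close together. Smad3 in Space_R9wt_D5 (33.7 CPM) was above the other space libraries (13.3 to 15.8 CPM), and Smad3 in Ground_R9del_D1 (10.3 CPM) was below the other R9del libraries (15.7 to 16.3 CPM).

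In 3 cases every pair of one group differed in one direction and every pair of the other group in the opposite direction. How many such cases chance or the other genes of the table would give was not computed. For Lefty2, space against ground was -4.16 and -1.26 on the log2 scale in the pairs at D1 and 4.34 and 1.06 in those at D5, a difference of 5.41 between the mean effects. This difference was tested as the interaction of location and duration given above, which did not pass after adjustment (adjusted p = 0.719, edgeR). For Acvr1b, R9del against R9wt was -0.12 and -0.76 at D1 and 0.01 and 0.23 at D5, a difference of 0.57. The value of 0.01 comes from 57.2 CPM in Ground_R9del_D5 and 56.7 CPM in Ground_R9wt_D5, which is close to no difference. For Smad2, D5 against D1 was -0.46 and -0.13 on the ground and 0.05 and 0.37 in space, a difference of 0.50. These differences of Acvr1b and Smad2 were tested as the interaction terms of genotype with duration and of location with duration, in which neither gene was below an unadjusted p of 0.05 in edgeR's test.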

How the results depend on the processing

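In R9del against R9wt the number of the 9 genes called went from 0 to 1 (Nodal) under the exact test, DESeq2's Wald test, the block of matched pairs and additive covariates (1 each), and was 0 or 1 when a library was left out. The pathway list went from 0 to 2 under the same 4 settings and was 0 or 1 when a library was left out. Over all genes the count of 371 became 157 without the filter, 1401 with the exact test, 1778 with DESeq2, 1382 with the block and 1239 with the covariates, and 0 to 524 with 1 library left out. It was 0 without Space_R9wt_D1, Space_R9del_D1, Ground_R9del_D1 or Ground_R9wt_D5. D5 against D1 had 36 genes with the exact test and 90 with DESeq2, from 0. For space against ground, leaving out 1 library gave 1 to 2 called in the pathway list and 822 to 1129 over all genes.

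Signs turned in values that passed no test. With the block and with the covariates, Lefty2 in space against ground was -0.063 and -0.58, and in D5 against D1 Lefty1 was 0.46 and 0.22, Acvr1b 0.059 and 0.049, and Smad2 -0.040 in both. With 1 library left out, the ranges in space against ground were -0.22 to 0.55 for Nodal, -1.07 to 0.65 for Lefty2, -0.14 to 0.59 for Tdgf1, -0.33 to 0.35 for Foxh1 and -0.045 to 0.49 for Smad3. In R9del against R9wt they were -0.13 to 0.60 for Tdgf1 and -0.36 to 0.12 for Acvr1b. In D5 against D1 they were -0.67 to 0.36 for Lefty1, -0.47 to 0.17 for Foxh1, -0.20 to 0.31 for Acvr1b and -0.20 to 0.22 for Smad2. The cause was not tested. In space against ground the count over all genes went from 1136 to 1449 with the replicate block. For the 9 genes and the pathway list the block changed no call other than those given. The 35 single-library differences past 2-fold stayed 35 with library size alone. The counts of the 9 genes were at least 493, and each condition had 1 library. What limited the calls was not tested.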

Other observations

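Smad7, an inhibitory Smad that the pathway itself induces, was chosen after its values were seen because its range was the widest of the pathway figure. It was at 30.1, 4.98, 14.8 and 23.6 CPM on the ground and at 3.64, 39.2, 1.02 and 35.3 CPM in space, in the order R9wt D1, R9wt D5, R9del D1 and R9del D5. In space the D5 libraries stood above the D1 libraries in both genotypes, and on the ground R9wt was lower at D5. Gdf3, a Nodal-related ligand, had its lowest level in Ground_R9wt_D5 (26.3 CPM), its next lowest in Space_R9wt_D1 (85.9 CPM), and lay between 139 and 227 CPM in the other 6 libraries. Both genes were picked for these values, so no test is given.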
